A study of Mus musculus with 6 samples.

Results

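Retinoic acid is made inside cells from retinol, and 9 genes that make, carry or bind it were read in TM3 cells, an established mouse cell line labelled as Leydig cells of the testis. The 9 genes, Rdh10, Dhrs3, Aldh1a1, Aldh1a2, Aldh1a3, Rbp4, Stra6, Crabp1 and Crabp2, were chosen by name out of 54532 genes in the count table. They were chosen with earlier results of these same libraries known, so their levels are a description and the share of them that differed supports nothing. The series compared 3 RNA sequencing libraries of TM3 cells overexpressing A20 with 3 libraries of control TM3 cells. A20 is encoded by Tnfaip3 and, as an editor of ubiquitin chains, limits NF-kB activity. The labels give the overexpressing cells the genotype A20 overexpression and the control cells, an overexpression control, the genotype WT. Both were grown in DMEM/F12 medium with bovine and horse serum. How A20 was overexpressed, the species of its sequence, whether the control cells carried an empty vector, whether a line was 1 clone and whether libraries came from separate cultures are not given in the sources used here. The p-values below therefore measure only the spread between these libraries, which may be technical.

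Retinol travels in blood on RBP4 and enters cells through the receptor STRA6. Inside the cell RDH10 oxidises retinol to retinal, DHRS3 reduces retinal back to retinol, and the ALDH1A enzymes oxidise retinal irreversibly to retinoic acid. CRABP1 and CRABP2 bind retinoic acid in the cytoplasm, and CRABP2 delivers it to the nuclear retinoic acid receptors. In the testis, retinoic acid starts the differentiation of spermatogonia and their entry into meiosis.

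Total counts ran from 13841287 to 16917979 per library, so that 3 counts, the upper limit that a count of 0 allows, lay between 0.177 and 0.217 CPM, the count scaled to a common library total. These limits and the intervals on ratios below cover counting error only. Control replicate 1 stood apart from the other 5 libraries. Among 11169 genes with at least 5 CPM on either side, 20.1% differed more than 2-fold between it and those 5 libraries, in either direction. The summed level of 8 Leydig cell markers was 5.26 to 7.86 CPM in the A20-overexpressing libraries, 2039 CPM in control replicate 1 and 3.97 to 6.29 CPM in control replicates 2 and 3. Hsd17b3, one of these markers, had no count in any library. Markers of the labelled cell type were thus low in 5 of the 6 libraries. Markers of fibroblasts and stroma summed to 12444 to 13080 CPM in the A20-overexpressing libraries, 2982 CPM in control replicate 1 and 9355 to 11768 CPM in the other control libraries, with Lum at 0 throughout. Col1a1 and Col1a2 made up most of these sums, and Dcn went another way, at 44.3 to 52.2 CPM with A20, 21.4 CPM in control replicate 1 and 145 and 231 CPM in control replicates 2 and 3. Sertoli cell markers summed to 156 to 169 CPM with A20, 425 CPM in control replicate 1 and 152 to 204 CPM in the other controls, with Sox9 and Fshr at 0. Clu had 221 CPM in control replicate 1 and 9.10 to 31.1 CPM in the other 5 libraries, and Gata4 123 and 12.5 to 24.2 CPM. Wt1, of the same list, went the other way, at 77.5 CPM there and 117 to 152 CPM in the other 5 libraries. Germ cell markers stayed between 6.06 and 12.2 CPM in all 6 libraries. Endothelial markers summed to 36.7 CPM in control replicate 1, of which Cdh5 was 35.1 CPM, against 3.05 to 4.85 CPM elsewhere. Egfl7, of the same list, had 1.04 CPM there and 3.05 to 4.47 CPM in the other 5 libraries. Macrophage markers were at 5.93 CPM in control replicate 1 and at 22.7 to 42.9 CPM elsewhere, with Adgre1 at 0. Cd68 made up most of these sums, at 3.71 CPM there and 19.3 to 38.7 CPM in the other 5 libraries. Csf1r, at 0.521 CPM, and Cd14, at 1.69 CPM, lay within the range of the other libraries, 0 to 0.828 and 1.67 to 4.79 CPM. The part of cell makeup in the values of control replicate 1 was not tested, nor was another cell stock or a wrong label for that library. A control mean over 3 libraries therefore joins libraries that are unlike each other. Each comparison is therefore given over 6 libraries and over the 5 libraries without it. Tnfaip3, the overexpressed gene, was at 41.0, 33.7 and 43.6 CPM with A20 overexpression, against 30.9, 11.9 and 15.2 CPM in control replicates 1, 2 and 3. All 3 overexpressing libraries were above all 3 controls. Tnfaip3 rose 2.84-fold over 5 libraries (edgeR quasi-likelihood test, adjusted p = 0.000256) and missed the threshold of 0.05 over 6 (log2 fold change 1.08 ± 0.30, SE; adjusted p = 0.331).

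The promoters of Aldh1a2 and Aldh1a1 are shown because these 2 synthesis genes had the highest levels of the 9 per length in control replicate 1, while only Aldh1a1 was abundant in the other 5 libraries. The 250 bases before the RefSeq start (GRCm38.p6) lie at chr9:71215539-71215788 on the plus strand for Aldh1a2 and at chr19:20492333-20492582 on the plus strand for Aldh1a1. Capitals mark a CCAAT box.
Aldh1a2: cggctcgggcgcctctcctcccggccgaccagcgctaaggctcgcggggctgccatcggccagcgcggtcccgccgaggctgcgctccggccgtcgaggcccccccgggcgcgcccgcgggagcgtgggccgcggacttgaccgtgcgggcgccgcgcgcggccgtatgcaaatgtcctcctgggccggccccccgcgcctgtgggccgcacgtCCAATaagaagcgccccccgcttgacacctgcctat
Aldh1a1: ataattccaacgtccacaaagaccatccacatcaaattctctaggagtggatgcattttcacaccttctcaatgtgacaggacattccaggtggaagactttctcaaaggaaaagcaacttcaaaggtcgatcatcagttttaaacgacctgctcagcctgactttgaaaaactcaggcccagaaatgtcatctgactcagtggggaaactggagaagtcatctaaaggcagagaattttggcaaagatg
In these windows Aldh1a2 held 40 CpG pairs and 77.6% G and C, against 3 CpG pairs and 42.8% G and C for Aldh1a1. The median over 32851 promoter windows of the same length was 6 CpG pairs, with quartiles of 2 and 16. The CCAAT box of Aldh1a2 begins 36 bases before the start. RefSeq lists 2 starts for Aldh1a1, and the one used lies 132 bases before the start of the gene in the count table. Both strands of the windows were searched for the retinoic acid receptor core AGGTCA, its variant AGTTCA, 2 such cores in the same direction 5 bases apart, the orphan receptor motif CAAGGTCA, which contains the core, the TATA box as TATAAA, and CCAAT. Of the 9 genes, 6 had a promoter in the table, and 3 of these 6 held CCAAT, namely Aldh1a2, Rbp4 and Stra6, while 33.8% of all windows did. The RefSeq start used for Stra6 lies 65300 bases inside the span that the count table gives the gene. The other motifs had no match in the 6 windows. They were found in 14.0% of all windows for AGGTCA, 11.8% for AGTTCA, 0.0335% for the paired cores, 1.33% for CAAGGTCA and 12.4% for TATAAA.

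The coding sequences of Aldh1a1 and Aldh1a7 are set side by side because the genes are similar copies on chromosome 19 and some reads may be assigned to either. Over 1503 aligned coding bases, 91.6% were identical in GENCODE M21, and the longest identical run was 100 bases. Bases 1 to 120, 5′ to 3′, are given with the 10 differing positions in capitals.
Aldh1a1: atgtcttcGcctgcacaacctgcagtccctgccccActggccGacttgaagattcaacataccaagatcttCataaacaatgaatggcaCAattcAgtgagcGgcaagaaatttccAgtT
Aldh1a7: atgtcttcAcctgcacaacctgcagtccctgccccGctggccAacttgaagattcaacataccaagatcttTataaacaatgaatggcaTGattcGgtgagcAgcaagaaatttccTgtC
The other pairs were further apart. Identity was 67.2% for Aldh1a1 and Aldh1a2 and 70.3% for Crabp1 and Crabp2.

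Without control replicate 1 the retinoid genes of A20-overexpressing and control TM3 cells lay close together. Of the 9 genes, 5 passed the filter on low counts in both fits, and none of the 5 passed edgeR's quasi-likelihood test. Their adjusted p ranged from 0.519 to 0.830 over 6 libraries and from 0.390 to 0.637 over 5, and none had an unadjusted p under 0.05 in either fit. DESeq2 and limma-voom also called 0 of them. Over all genes, 0.0150% of 13350 passed with 6 libraries, which is 1 higher and 1 lower, and 1341 had an unadjusted p under 0.05. With 5 libraries 4.60% of 13658 genes passed, 262 higher and 366 lower, and 2946 had an unadjusted p under 0.05. In CPM, Crabp2, Dhrs3 and Stra6 were higher in each A20-overexpressing library than in each control, Aldh1a1 was lower, and Rdh10 overlapped, whether or not control replicate 1 was counted. In FPKM, the authors' values scaled by gene length, and in CPM divided by edgeR's TMM factors, Crabp2 overlapped too, while the other 4 genes kept this pattern. The library scaling of FPKM differs from that of CPM, since the order of libraries within a gene can change between them. Over all genes tested, 16.9% had groups that did not overlap in CPM with 6 libraries and 37.9% with 5. The median log2 fold change of the 5 genes was 0.23 over 6 libraries and 0.27 over 5, while that of all genes was -0.03 and -0.00. In these bulk libraries fewer cells of a type and less RNA per cell cannot be told apart.

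**Figure D1:**
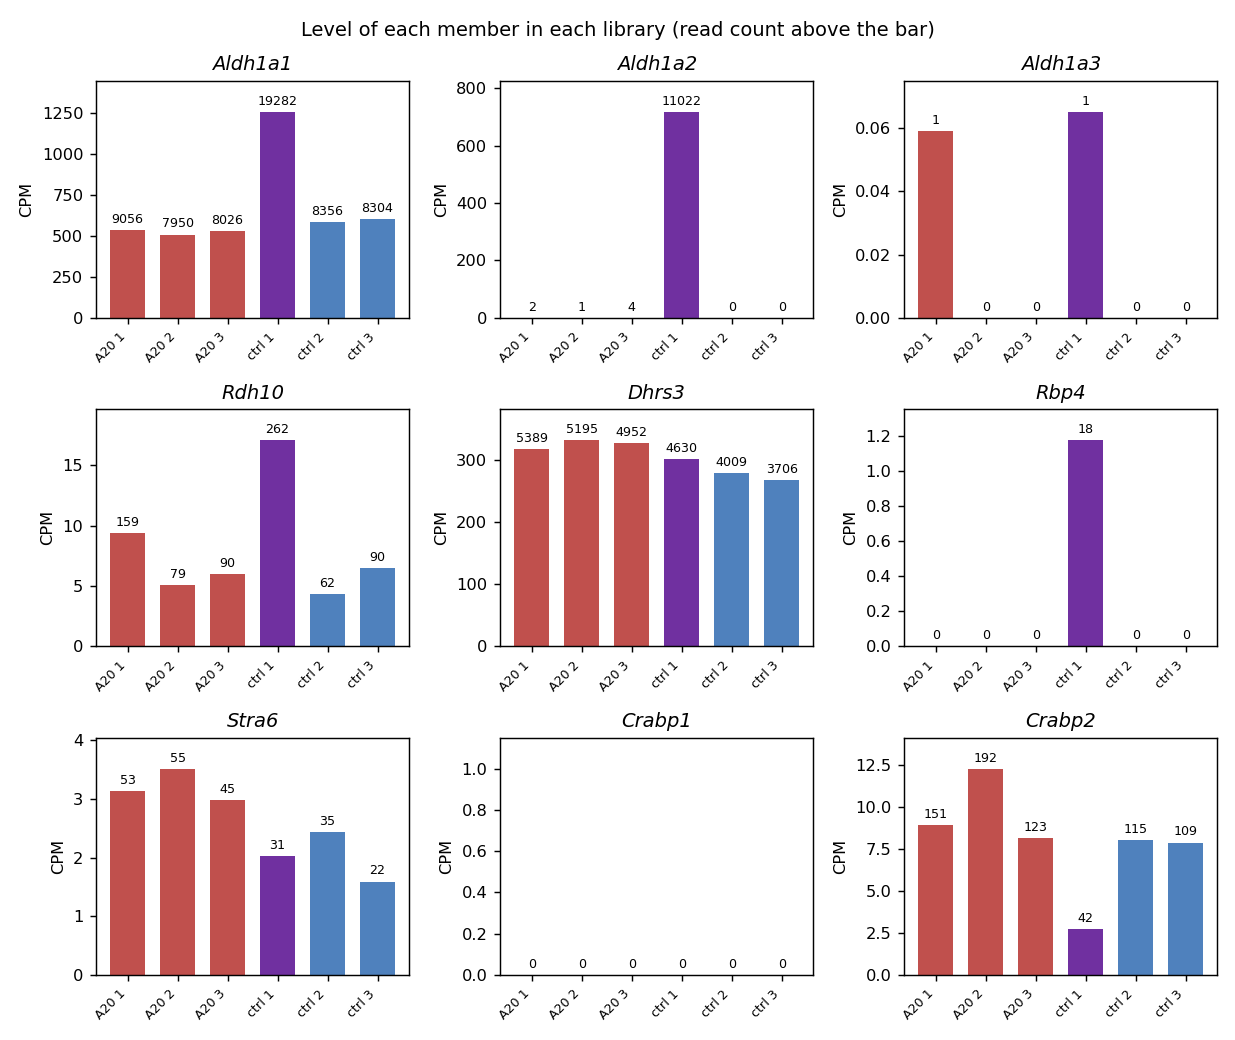
CPM of each of the 9 genes (a panel per gene with its own axis from 0) in each library, with the read count above each bar; red is A20 overexpression, purple control replicate 1 and blue control replicates 2 and 3. Aldh1a2 stands at 718 CPM in control replicate 1 and at or below 0.265 CPM elsewhere, while the Dhrs3 bars lie between 268 and 332 CPM.

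Rdh10 (ENSMUSG00000025921, GRCm38 chromosome 1, 16105774 to 16133734, plus strand) encodes the dehydrogenase that turns retinol into retinal. It was at 9.40, 5.05 and 5.96 CPM in the libraries overexpressing A20, against 17.1, 4.32 and 6.50 CPM in control replicates 1, 2 and 3. Control replicate 1 was the highest of the 6, and the groups overlapped with or without it. The means were 6.80 ± 2.29 CPM with A20 and 9.30 ± 6.82 CPM in control (SD, n = 3 each), or 5.41 ± 1.54 CPM in control replicates 2 and 3 (SD, n = 2). The direction of the estimate turned with that library. The log2 fold change was -0.38 ± 0.48 over 6 libraries (SE; edgeR adjusted p = 0.830) and 0.30 ± 0.32 over 5 (adjusted p = 0.637).

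Dhrs3 (ENSMUSG00000066026, chromosome 4, 144892827 to 144928209, plus strand) encodes the opposing reductase, which returns retinal to retinol, and is known as a gene that retinoic acid induces. It was at 319, 332 and 328 CPM in the libraries overexpressing A20, against 302, 279 and 268 CPM in control. The groups were apart, and no A20-overexpressing library reached down to a control. Means were 326 ± 6.86 CPM with A20 and 283 ± 17.2 CPM in control (SD, n = 3 each), and 274 ± 8.27 CPM in control replicates 2 and 3 (n = 2). The log2 fold change was 0.23 ± 0.15 over 6 libraries (SE; edgeR adjusted p = 0.626) and 0.22 ± 0.14 over 5 (adjusted p = 0.390). In CPM before TMM scaling, Dhrs3 was also the member in which control replicate 1 was closest to the rest. That library stood at 0.984 times the level pooled over the other 5 libraries of both groups (95% interval 0.953 to 1.02). After TMM scaling Dhrs3 was at 272 CPM in control replicate 1. It was at 298 and 269 CPM in control replicates 2 and 3, and at 320 to 342 CPM with A20.

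Aldh1a1 (ENSMUSG00000053279, chromosome 19, 20492715 to 20643462, plus strand) encodes a cytosolic retinaldehyde dehydrogenase. It was at 535, 508 and 532 CPM in the libraries overexpressing A20, against 1256, 582 and 600 CPM in control. All 3 A20-overexpressing libraries were below all 3 controls, and control replicate 1 stood at 2.29 times the other 5 libraries pooled (95% interval 2.25 to 2.33). The means were 525 ± 14.9 CPM with A20 and 813 ± 384 CPM in control (SD, n = 3 each), or 591 ± 12.4 CPM in control replicates 2 and 3 (n = 2). The coefficient of variation was 2.84% with A20 and 47.2% in control. The log2 fold change was -0.57 ± 0.26 over 6 libraries (SE; edgeR adjusted p = 0.519), and without control replicate 1 it was -0.21 ± 0.14 (adjusted p = 0.413). The long noncoding C730002L08Rik lies on the other strand within Aldh1a1 and had 15 to 39 counts per library. The strand setting of the counting is not given, so such pairs cannot be told apart.

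Aldh1a7 (ENSMUSG00000024747, chromosome 19, 20692953 to 20727562, minus strand), the copy of Aldh1a1, lies outside the naming rule and was chosen after its values were seen. It was at 0.709, 0.319 and 0.530 CPM in the libraries overexpressing A20, against 16.4, 2.72 and 1.81 CPM in control. The groups were apart by this measure, with control replicate 1 the highest. Aldh1a7 fell 4.42-fold over 5 libraries (edgeR log2 fold change -2.14 ± 0.57, SE; adjusted p = 0.0390) and missed the threshold over 6 (-3.62 ± 0.86, adjusted p = 0.269), where DESeq2 called it (adjusted p = 0.0018). The 5-library call ended under 9 of 16 alternatives, among them the loss of A20 replicate 1, 2 or 3 or control replicate 2. Over all 16 alternatives the log2 fold change ran from -2.44 to -0.76. Aldh1a7 counts were 0.133%, 0.0629% and 0.0997% of the Aldh1a1 counts in the A20-overexpressing libraries, against 1.30%, 0.467% and 0.301% in control. The share was thus not constant across libraries and was higher in every control. With the counts of both genes summed, an alternative added after the data were examined, the log2 fold change was -0.59 over 6 libraries (adjusted p = 0.514) and -0.21 over 5 (adjusted p = 0.404), close to that of Aldh1a1 alone.

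Aldh1a2 (ENSMUSG00000013584, chromosome 9, 71215789 to 71296243, plus strand) encodes the dehydrogenase that makes most embryonic retinoic acid. It had 2, 1 and 4 counts in the A20-overexpressing libraries, against 11022, 0 and 0 counts in control replicates 1, 2 and 3. That is 718 CPM in control replicate 1, and 0 to 0.265 CPM in the other 5. The 3 A20-overexpressing libraries had a few counts and control replicates 2 and 3 none, too few counts to show a difference at this depth. Aldh1a2 was not kept by the filter in either fit, so the main test did not cover it. Over 6 libraries, counts above the minimum stood in 1 library only, and over 5 in none. Control replicate 1 was 7782 times above the other 5 libraries pooled, which held 7 counts together (95% interval 3776 to 19359). By this ratio Aldh1a2 ranked number 5 of 11169 genes. The pseudogene Gm48124 overlaps Aldh1a2 and had 13 counts in control replicate 1 and 0 in the other libraries. Aldh1a3 (chromosome 7, 66390890 to 66427517, minus strand), the remaining enzyme of this kind, had 1, 0 and 0 counts with A20 and 1, 0 and 0 in control, which is at or below the limit of 3 counts everywhere.

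**Figure D2:**
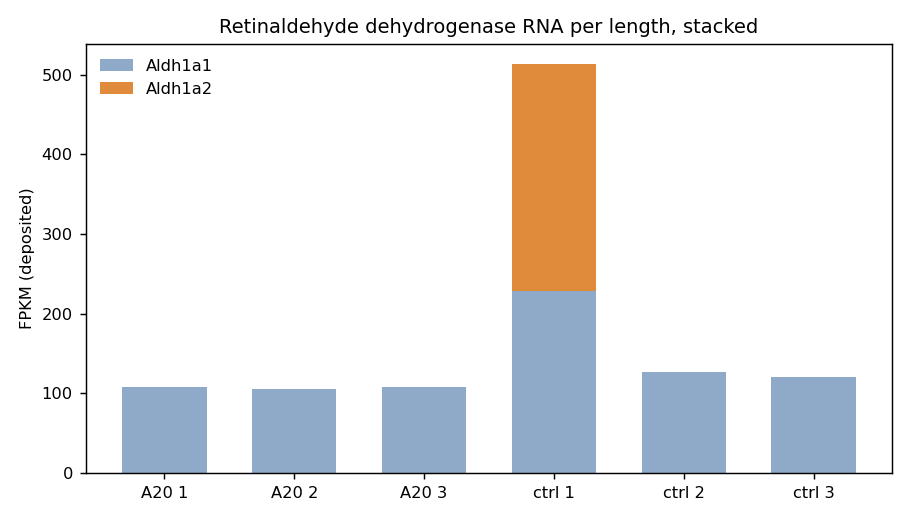
FPKM (the authors' values) of Aldh1a1 (blue) and Aldh1a2 (orange) stacked per library, A20 overexpression left of control (ctrl), starting at 0; Aldh1a3, with at most 1 count in a library, is not drawn. The sum is 106 to 108 FPKM in the 3 A20-overexpressing libraries, 513 FPKM in control replicate 1 and 121 to 126 FPKM in control replicates 2 and 3.

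Per length, the 3 Aldh1a genes together came to 108, 106 and 108 FPKM in the A20-overexpressing libraries, against 513, 126 and 121 FPKM in control, as the stacked bars show. In control replicate 1 Aldh1a2 made up 55.5% of the sum and Aldh1a1 44.5%. In the other 5 libraries Aldh1a1 was nearly all of it, with Aldh1a2 at 0.108% or less.

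Rbp4 (chromosome 19, 38116620 to 38125321, minus strand) encodes the plasma carrier of retinol. It had no count in the 3 A20-overexpressing libraries, against 18, 0 and 0 counts in control replicates 1, 2 and 3. Control replicate 1 was at 1.17 CPM, at least 29.7-fold higher than the other 5 libraries, with a floor of 3 counts over those libraries together. Counting error of the 18 reads included, the exact 95% lower limit of the ratio was 21.7. The main test did not cover Rbp4, since the counts stood in 1 library.

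Stra6 (ENSMUSG00000032327, chromosome 9, 58063788 to 58153996, plus strand) encodes the membrane receptor that takes up retinol from RBP4. It was at 3.13, 3.51 and 2.98 CPM in the libraries overexpressing A20, against 2.02, 2.44 and 1.59 CPM in control. The groups were apart, and control replicate 1 lay between the other control libraries. Means were 3.21 ± 0.274 CPM with A20 and 2.02 ± 0.425 CPM in control (SD, n = 3 each). The log2 fold change was 0.69 ± 0.39 over 6 libraries (SE; edgeR adjusted p = 0.588) and 0.63 ± 0.41 over 5 (adjusted p = 0.396). These values rest on 45 to 55 counts per library with A20 and on 22 to 35 in control. Ccdc33 and Gm16131 overlap the gene, both with no count in any library.

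Crabp2 (ENSMUSG00000004885, chromosome 3, 87948666 to 87953376, plus strand) encodes the binding protein that hands retinoic acid to its receptors. It was at 8.93, 12.3 and 8.15 CPM in the libraries overexpressing A20, against 2.74, 8.02 and 7.87 CPM in control. In CPM A20 replicate 3 lay just above control replicate 2, and control replicate 1 was the lowest. After TMM scaling that order turned, at 8.17 CPM in A20 replicate 3 and 8.56 CPM in control replicate 2, and it turned in FPKM as well, at 6.14 and 6.48, so the groups overlapped on both scales. Control replicate 1 was at 0.301 times the other 5 libraries pooled (95% interval 0.215 to 0.411), rank 92 from the bottom of 11169 genes. The means were 9.78 ± 2.19 CPM with A20 and 6.21 ± 3.01 CPM in control (SD, n = 3 each), or 7.95 ± 0.0997 CPM in control replicates 2 and 3 (n = 2). The log2 fold change was 0.65 ± 0.46 over 6 libraries (SE; edgeR adjusted p = 0.666) and 0.27 ± 0.26 over 5 (adjusted p = 0.606). Crabp1 (chromosome 9, 54764748 to 54773110, plus strand), its relative in the cytoplasm, had no count in any of the 6 libraries.

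**Figure D3:**
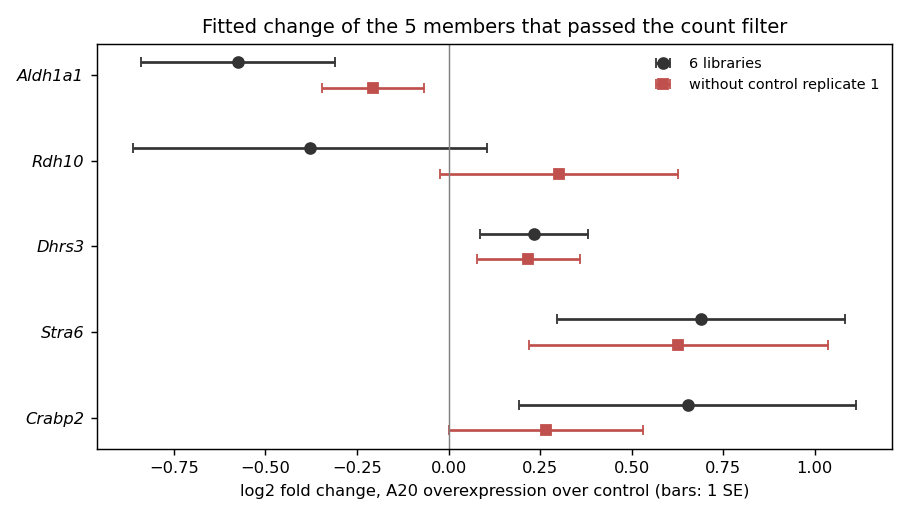
Log2 fold change, A20 overexpression over control, of the 5 genes that passed the count filter, with bars of 1 SE, for 6 libraries (black circles) and without control replicate 1 (red squares). Rdh10 stands at -0.38 over 6 libraries and 0.30 over 5, Aldh1a1 at -0.57 and -0.21, and Dhrs3 hardly moves, at 0.23 and 0.22.

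**Figure D4:**
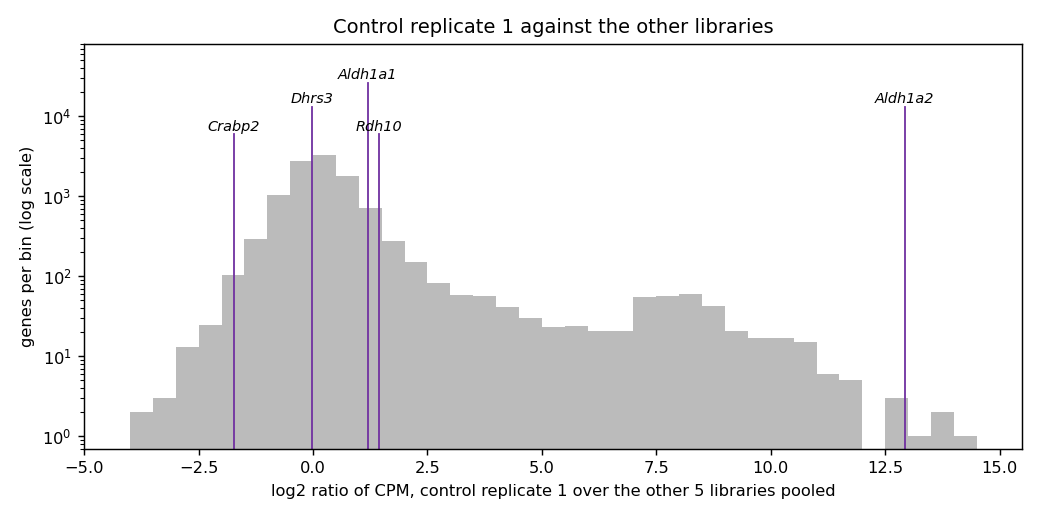
Histogram of the log2 ratio of CPM, control replicate 1 over the other 5 libraries pooled, for 11169 genes in bins of 0.5, with a log axis for the number of genes; purple lines mark the 5 of the 9 genes with at least 5 CPM on either side. The quartiles of all genes are -0.23 and 0.66, Aldh1a2 lies far to the right at a ratio of 7782, and Crabp2 to the left at 0.301.

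The plot of ratios sets control replicate 1 against the rest. Its median log2 ratio over all 11169 genes was 0.18, with quartiles of -0.23 and 0.66. Aldh1a2, at a ratio of 7782, Rdh10, at 2.70 (95% interval 2.31 to 3.14), and Aldh1a1, at 2.29, lay above the upper quartile. Crabp2, at 0.301, lay below the lower one, and the interval of Stra6, at 0.730 (0.483 to 1.07), spanned 1. All these ratios are of CPM before TMM scaling. The TMM factor was 1.11 for control replicate 1 and 0.937 to 0.998 for the other libraries. A ratio of 1 is therefore not the level of a typical gene here, and no interval was computed after TMM scaling.

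Compared per length, Dhrs3 and Aldh1a1 were the most abundant of the 9 genes in 5 of the 6 libraries. Dhrs3 had 108, 116 and 112 FPKM and Aldh1a1 108, 105 and 107 FPKM in the A20-overexpressing libraries. In control replicates 1, 2 and 3 Dhrs3 had 92.5, 102 and 90.9 FPKM and Aldh1a1 228, 126 and 121 FPKM. In the A20-overexpressing libraries the 2 genes were 112 ± 3.97 and 107 ± 1.29 FPKM (SD, n = 3), close to their spread, and in control replicates 2 and 3 they were 96.4 ± 7.89 and 123 ± 3.80 FPKM (SD, n = 2). Crabp2 followed at 6.14 to 9.51 FPKM with A20 and 5.92 to 6.48 FPKM in control replicates 2 and 3, then Rdh10 at 1.24 to 2.25 FPKM with A20 and 1.11 to 1.55 FPKM in those controls. Stra6 came next at 0.510 to 0.618 FPKM with A20 and 0.271 to 0.447 FPKM in those controls. Crabp2, Rdh10 and Stra6 did not overlap with their neighbours in that order. In control replicate 1 the order was Aldh1a2 at 285 FPKM, Aldh1a1, Dhrs3, Rdh10 at 3.68, Crabp2 at 1.86, Rbp4 at 0.811 and Stra6 at 0.311 FPKM.

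Beyond the 9 genes, 55 other genes of retinoid uptake, oxidation, degradation, reception and response were listed, and 54 were in the count table. Of these, 14 had no count in any library and 27 passed the filter in both fits. None of the 27 passed edgeR's test over 6 libraries, and 1 passed it over 5. Over 6 libraries 3 of the 27 had an unadjusted p under 0.05, against 1341 of 13350 over all genes. Over 5 libraries 6 of the 27 did, against 2946 of 13658. DESeq2 called 1 of 40 of these retinoid genes over 6 libraries, against 163 of 26303 over all genes. The median log2 fold change of the 27 in edgeR was 0.05 over 6 libraries and 0.07 over 5. The groups did not overlap in CPM in 3 higher and 1 lower genes with 6 libraries, 14.8% of the 27 against 16.9% of all genes, and in 7 higher and 1 lower with 5, 29.6% against 37.9%. The 1 gene called over 5 libraries is 3.70% of the 27, against 4.60% of all genes. The number tested was 3 of 14 for transport and storage, 14 of 20 for oxidation and reduction, 0 of 3 for degradation, 4 of 6 for receptors and 6 of 11 for genes known to respond to retinoic acid.

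The gene that passed was Dhrs9 (ENSMUSG00000027068, chromosome 2, 69380445 to 69404533, plus strand), a short-chain dehydrogenase that oxidises retinol. It was at 55.9, 44.7 and 79.7 CPM in the libraries overexpressing A20, against 32.1, 26.1 and 37.2 CPM in control. All 3 overexpressing libraries were above all 3 controls, and control replicate 1 lay between the other controls. Dhrs9 rose 1.86-fold over 5 libraries (edgeR log2 fold change 0.89 ± 0.22, SE; adjusted p = 0.0311), and over 6 the estimate was 0.94 ± 0.23 (adjusted p = 0.274). The 5-library call ended without A20 replicate 1 (adjusted p = 0.0883), A20 replicate 3 (0.145) or control replicate 2 (0.149), and its adjusted p ranged from 2.24e-05 to 0.168 over all alternatives.

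In each class the member with the highest mean FPKM over the 6 libraries was also read. For oxidation and reduction that was Adh7, at 53.6 FPKM, which led through control replicate 1. Over the other 5 libraries Akr1b3, an aldo-keto reductase, was the highest, at 48.9 FPKM, with Adh7 at 37.6 FPKM. Adh7, an alcohol dehydrogenase that oxidises retinol, was at 141, 133 and 145 CPM with A20, against 564, 142 and 139 CPM in control. The height of control replicate 1 is part of how Adh7 was picked. The log2 fold change was -0.93 ± 0.46 over 6 libraries and -0.05 ± 0.14 over 5 (SE). Cyp26b1, which degrades retinoic acid, was at 0.296, 0.192 and 0.265 CPM with A20, against 7.75, 0.279 and 0.217 CPM in control. Control replicate 1 was at 31.0 times the other 5 libraries (95% interval 19.0 to 53.2), and the gene was not tested in either fit. Fabp5, a fatty acid binding protein that also carries retinoic acid, was at 185, 216 and 198 CPM with A20 and 125, 211 and 226 CPM in control. Rarg, a retinoic acid receptor, was at 137, 143 and 148 CPM with A20 and 143, 106 and 129 CPM in control. Meis2, a homeobox gene that retinoic acid induces, was at 126, 121 and 122 CPM with A20 and 86.5, 129 and 108 CPM in control. In CPM the groups of these 3 genes overlapped over 6 libraries, and over 5 Rarg was higher in each A20-overexpressing library. The log2 fold changes over 6 and over 5 libraries were 0.10 ± 0.26 and -0.16 ± 0.14 for Fabp5, 0.22 ± 0.14 and 0.25 ± 0.14 for Rarg, and 0.20 ± 0.20 and 0.02 ± 0.14 for Meis2 (SE). After TMM scaling Rarg was apart over 6 libraries as well, and Fabp5 was lower in each A20-overexpressing library over 5. None of the 3 passed edgeR's test, with adjusted p from 0.300 to 0.962. The heat map of the other retinoid genes shows that the strongest colours stand in control replicate 1, in both directions.

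**Figure D5:**
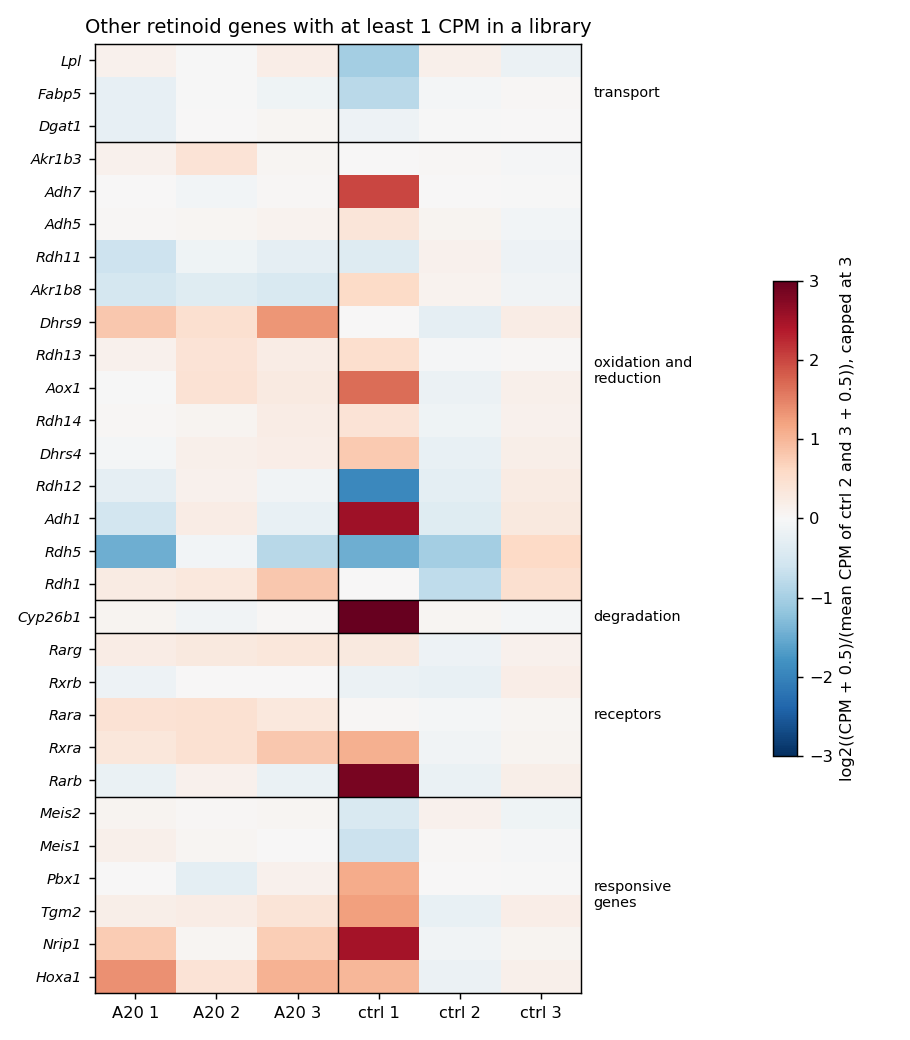
Heat map of 29 other retinoid genes with at least 1 CPM in a library, by class, with a column per library; the colour is log2 of CPM + 0.5 over the mean CPM of control replicates 2 and 3 (ctrl 2, ctrl 3) + 0.5, capped at 3. Dhrs9 is red in the 3 A20-overexpressing columns, and Cyp26b1, Rarb, Adh1, Nrip1 and Adh7 are red in the column of control replicate 1.

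The following genes were chosen after their values were seen. Rarb, a receptor gene that retinoic acid induces, was at 3.65 CPM in control replicate 1 and at 0 to 0.144 CPM in the other libraries, a ratio of 69.2 (95% interval 25.6 to 263). Adh1 was at 19.8 CPM in control replicate 1 and at 1.89 to 3.76 CPM elsewhere, and Nrip1, a receptor corepressor, at 41.8 CPM and 6.55 to 12.4 CPM. Rdh12, a retinal reductase, went the other way, at 1.56 CPM in control replicate 1 and 5.86 to 8.81 CPM elsewhere. Rara, a receptor gene, was at 29.4, 29.9 and 26.9 CPM in the libraries overexpressing A20, against 22.2, 20.6 and 22.6 CPM in control, without overlap. It did not pass the test (edgeR adjusted p = 0.470 over 6 libraries and 0.210 over 5).

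The genes with the most similar pattern were found among 9781 protein-coding genes as those with the highest Pearson r of log2 CPM over the 6 libraries. These values are a description, since the libraries of all genes are the same and control replicate 1 weighs heavily on them. Aldh1a1 was closest to Bnip3 (r = 0.999 over 6 libraries, 0.993 over 5) and Pradc1 (0.999 and 0.974). Aldh1a2 was closest to Slc7a11 and Fkbp5 (both 0.998 over 6 libraries). That r rests on control replicate 1, and none is given over the other 5 libraries, where Aldh1a2 had 0 to 4 counts. Crabp2 was closest to Dtnb (0.997 and 0.972) and Ubtd1 (0.996 and 0.960), and Rdh10 to Dph7 (0.996 and 0.994) and Prpf4 (0.993 and 0.985). Dhrs3 was closest to Psmf1 (0.998 and 0.997) and Klhdc8a (0.986 and 0.982). Bnip3 was at 26.7, 25.0 and 27.6 CPM with A20, against 130, 34.4 and 35.1 CPM in control. Klhdc8a was at 9.52, 12.5 and 10.9 CPM with A20, against 4.50, 5.02 and 4.05 CPM in control.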

How the data were processed

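RNA of TM3 cells was sequenced, after an mRNA library kit per the labels, in 3 A20-overexpressing and 3 control libraries, grouped by their labels. The deposited table holds whole-number counts per gene, made by the authors and used as deposited, and the build is GRCm38 (mm10) per the submitters' processing notes. The authors' FPKM values, in a second deposited table, were used for levels across genes and in alternatives. The aligner, counter and strand setting are not given in the sources used here.

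The main test was edgeR 4.0.16 (R 4.3.3), a quasi-likelihood F test with TMM factors, filterByExpr, robust estimation and p-values adjusted by Benjamini-Hochberg across the genes that passed the filter, with a threshold of 0.05. The design held the group alone. CPM is the count over the library total. The SE of a log2 fold change is approximate, its size over the square root of F. The procedure was tested on simulated data, whose outcome is not given here. No simulated library was set apart like control replicate 1, so that case was not covered. Ratios carry exact 95% binomial intervals. Positions and sequences came from GENCODE M21 and RefSeq, through Python 3.11.15.

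The 9 genes, the other lists, the fit without control replicate 1 and the naming rule were chosen with earlier results of these data known. The rule named the 9 genes, Tnfaip3, other retinoid genes past the threshold, the most abundant per class by FPKM, and the 2 genes most like each member of at least 5 CPM. Alternatives were other scalings, no filter, a filter of 1 CPM, DESeq2 1.42.0, limma 3.58.1 with voom or on log2(FPKM + 1) and log2(FPKM + 0.1), a mean FPKM of at least 1, no robust fitting, a replicate block and each library left out.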

Additional observations from a re-analysis of the deposited data

How the results depend on the processing

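Depth limits Stra6, Rdh10 and Crabp2 to between 22 and 262 counts per library, and leaves Aldh1a3 and Crabp1 at or under the floor in all libraries and Rbp4 in all but control replicate 1. With 5 libraries, leaving out control replicate 2 or 3 leaves a lone control library that is assumed to vary like the A20-overexpressing ones. Over all genes with 6 libraries, 2 were called. The count was 0 with upper-quartile factors, library size alone, limma-voom, log2(FPKM + 1), log2(FPKM + 0.1), a mean FPKM of at least 1 or no robust fitting, 23 with no filter and 163 with DESeq2, and 0 to 628 with a library left out, the highest without control replicate 1. With 5 libraries, 628 were called, against 1173 with no filter, 109 with log2(FPKM + 1), 63 with log2(FPKM + 0.1), 35 with a mean FPKM of at least 1, and 142 to 2423 with a library left out. Of the 9 genes, 5 were tested in both fits, and none of these 5 was called under the alternatives that tested them. Their lowest adjusted p was 0.254, and of 175 values 174 kept their direction and side of the threshold. The exception was Rdh10 over 6 libraries, at -0.69 to 0.30 with a library left out. The same reversal met Fabp5 over 6 libraries (-0.16 to 0.25), and over 5 Adh7 (-0.11 to 0.013) and Meis2 (-0.14 to 0.20). Of the other retinoid genes 0 were called with 6 libraries, 1 with DESeq2 and 0 to 1 with a library left out; with 5 libraries 1 was called, 0 in the 3 FPKM settings and 0 to 3 with a library left out. With each group's mean taken from log2 CPM, libraries with the same replicate number correlated at 0.0257, 0.115 and -0.0388 over 13350 genes. Control replicate 1 weighs on the group mean and so on every control deviation. These values therefore cannot show whether the numbers pair the libraries. A replicate block gave 2 calls with 6 libraries and 797 with 5. With 6 libraries the median of all genes moved to -0.18 with DESeq2 and -0.16 with no filter. With a mean FPKM of at least 1 over 6 libraries, Aldh1a2 entered the test (log2 fold change -2.63, adjusted p = 0.723) and Stra6 left it. With no filter, edgeR gave Aldh1a2 -10.4 over 6 libraries (adjusted p = 0.665) and 4.24 over 5 (adjusted p = 0.486). Its direction thus turned with control replicate 1. Rbp4 was at -5.48 over 6 libraries in that setting (adjusted p = 0.665), with counts in 1 library. The cause of these differences was not tested.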
